A study of Mus musculus with 24 samples.

Results

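The 10 genes described here, Nqo1, Hmox1, Gclc, Gclm, Txnrd1, Srxn1, Gpx2, Sod2, Sod3 and Slc7a11, encode antioxidant enzymes and a cystine carrier, most of them known targets of the transcription factor Nrf2. They were found on the array by gene symbol, and all 10 were measured, among 20738 named genes. Hmox1 had 2 array features, of which the brighter was used, and the other 9 had 1 each. Total RNA came from whole lung of C57BL/6 mice aged 9 to 12 weeks and was read on 24 one-colour Agilent arrays, 1 per sample. Mice received bleomycin with gapmer 1 (n = 5), bleomycin with gapmer 3 (n = 5), bleomycin with a control gapmer (n = 5), PBS with gapmer 1 (n = 3), PBS with gapmer 3 (n = 3) or PBS with the control gapmer (n = 3). Bleomycin breaks DNA and is given to mice to cause lung injury with later fibrosis. Gapmers are antisense oligonucleotides through which RNase H cuts a chosen RNA, here the long noncoding RNA Dnm3os for gapmers 1 and 3. Every group, the controls included, had received a gapmer. The sources used here do not give dose, route, time after bleomycin or sex. Samples carry replicate numbers and no animal names, so a p-value here covers sample-to-sample spread, which may be technical.

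Nrf2, encoded by Nfe2l2, is held at a low level by Keap1, which presents it for degradation. Oxidants and electrophiles modify Keap1, Nrf2 then enters the nucleus, pairs with a small Maf protein and binds the antioxidant response element in front of its target genes, a site that the repressor Bach1 can also occupy. The targets make glutathione, reduce thioredoxin and peroxiredoxins, degrade haem and detoxify quinones, and the activity of Nrf2 is set mainly at the protein level, which an RNA array does not read. In the lung, bleomycin bound to iron produces oxygen radicals, and recruited phagocytes add more.

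Because several of these genes were higher after bleomycin, the windows of 250 bases before their RefSeq transcription starts (GRCm38.p6) were searched on both strands for the core of the antioxidant response element, TGACNNNGC, and for TGAGNNNGC, a variant differing in 1 base. The windows table matched 7 of the 10 genes, with 9 windows, and not Hmox1, Gclc or Sod3. A match to either string stood before Gclm, Txnrd1, Srxn1 and Slc7a11, and the matched stretches follow with the matches in capitals. Capitals that begin with GC are matches on the strand opposite to the one printed. The Gclm stretch lies at chr3:122245403-122245451 (plus strand), the Txnrd1 stretch, from the second of its 3 windows, at chr10:82859094-82859142 (plus strand), the Srxn1 stretch at chr2:152105346-152105507 (plus strand) and the Slc7a11 stretch at chr3:50443682-50443730 (minus strand).
Gclm: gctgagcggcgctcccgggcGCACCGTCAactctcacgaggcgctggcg
Txnrd1: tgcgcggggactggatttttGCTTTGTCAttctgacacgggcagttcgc
Srxn1: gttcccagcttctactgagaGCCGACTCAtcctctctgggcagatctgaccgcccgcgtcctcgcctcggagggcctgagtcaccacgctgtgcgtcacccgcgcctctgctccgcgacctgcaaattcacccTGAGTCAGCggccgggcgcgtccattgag
Slc7a11: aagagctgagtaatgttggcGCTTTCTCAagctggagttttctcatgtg
TGACNNNGC was matched before Gclm and Txnrd1, and TGAGNNNGC once before Slc7a11 and at 2 places before Srxn1. The strings differ in 1 base and so cannot match at the same place and strand. Of all 32851 windows of this length, 10.16% held TGACNNNGC, 14.38% TGAGNNNGC and 23.01% either. These matches describe letters and not bound sites, and Nrf2 sites of some of these genes are known to lie farther upstream.

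Some facts about the arrays bear on the values below. Deposited log2 intensities ran from 5.03 to 18.25, RNA integrity numbers from 8.5 to 10.0, and correlations between replicates from 0.982 to 0.998. Dnm3os, the gapmers' target, ranged from 5.99 to 6.48 with gapmer 1, from 6.26 to 6.78 with gapmer 3 and from 6.64 to 7.05 with the control gapmer in bleomycin lungs. There Dnm3os fell by 0.72 (limma adjusted p = 0.000186) under gapmer 1, and under gapmer 3 the fall was 0.50 (limma adjusted p = 0.00293). In PBS lungs neither difference passed. It was -0.45 with gapmer 1 (limma adjusted p = 0.088) and -0.25 with gapmer 3 (limma adjusted p = 0.577). Mean levels with gapmers 1 and 3 in PBS lungs, 5.89 and 6.10, were below 6.11, the level that 25% of genes had a mean under. On some arrays features in 1 zone read low, which touches Sod2 and Sod3 and is described with them. Replicate 3 of the bleomycin gapmer 3 group was above the rest of its group in many antioxidant genes, and replicate 4 of the bleomycin gapmer 1 group read Hmox1 as high as the control-gapmer group. Both are given with the genes they touch. In whole lung, fewer cells of a type and less RNA per cell cannot be told apart.

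**Figure D1:**
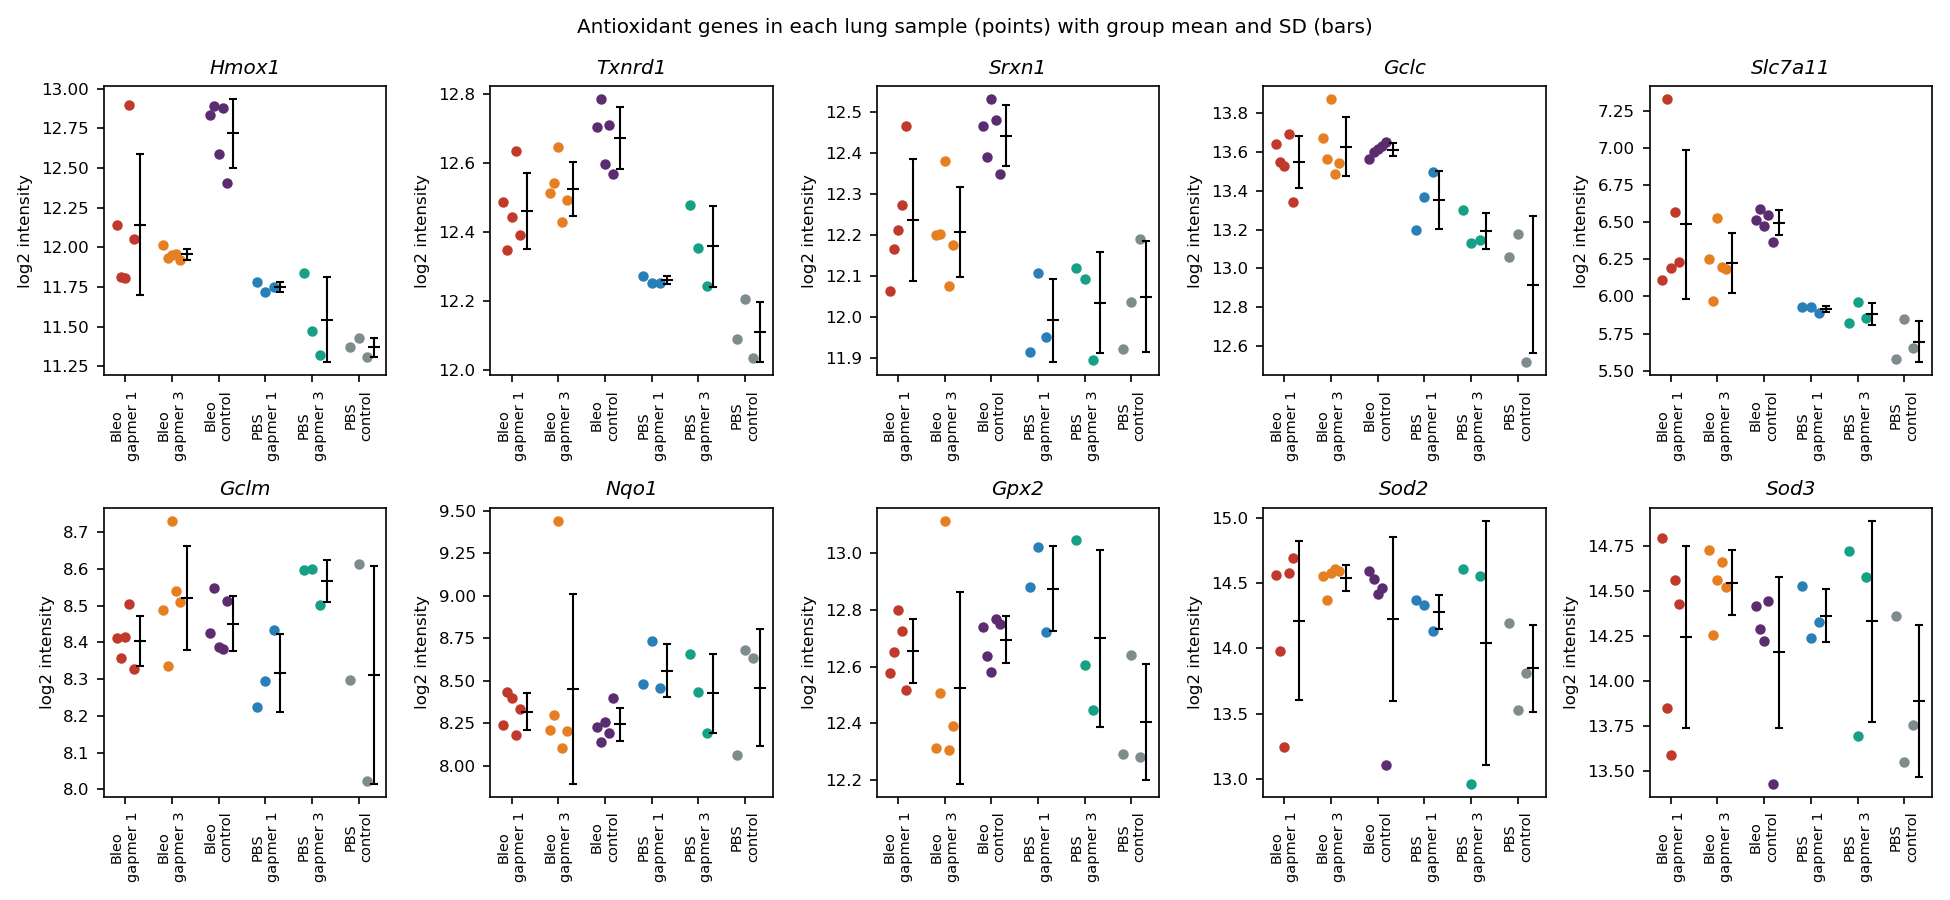
Log2 intensity (vertical axis, its own scale in each panel) of the 10 genes in every sample (points), by group, with the group mean and SD as bars. Hmox1 lay between 12.40 and 12.89 in the bleomycin control-gapmer lungs and between 11.31 and 11.43 in the PBS control-gapmer lungs. Nqo1 and Gpx2 each show 1 high point among the bleomycin gapmer 3 lungs.

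The bleomycin response under the control gapmer (n = 5 against 3) asks which of these genes move with lung injury. Of the 10, 5 rose and none fell: Hmox1, Slc7a11, Gclc, Txnrd1 and Srxn1, between 1.31-fold and 2.54-fold. Over all named genes 33.8% were called in this comparison, 14.5% higher and 19.3% lower, a call being a limma p adjusted over all named genes under 0.05. The median difference was 0.38 over the 10 genes and -0.02 over all genes. In each of the 5 that rose, every bleomycin array lay above every PBS array. That adds little to the calls by which these 5 were picked. The share of all named genes so separated was not counted.

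Hmox1, which encodes the inducible haem oxygenase that splits haem into biliverdin, iron and carbon monoxide, read 12.84, 12.89, 12.59, 12.88 and 12.40 in bleomycin control-gapmer lungs, against 11.37, 11.43 and 11.31 in PBS control-gapmer lungs. It rose by 1.35 on the log2 scale, or 2.54-fold (SE 0.17, limma adjusted p = 3.33e-06). The dimmer Hmox1 feature rose too, by 1.00 (SE 0.16, limma adjusted p = 4.19e-05). Txnrd1, the cytosolic thioredoxin reductase, read 12.70, 12.79, 12.60, 12.71 and 12.57 in bleomycin control-gapmer lungs, against 12.09, 12.20 and 12.03 in PBS control-gapmer lungs. Its rise of 0.57 (SE 0.07, limma adjusted p = 2.99e-06) was smaller than that of Hmox1 and had a narrower error. Srxn1, sulfiredoxin, which repairs overoxidised peroxiredoxins, read 12.47, 12.39, 12.53, 12.48 and 12.35 in bleomycin control-gapmer lungs, against 11.92, 12.04 and 12.19 in PBS control-gapmer lungs. It rose by 0.39 (SE 0.09, limma adjusted p = 0.00123).

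Glutamate-cysteine ligase, the rate-limiting enzyme of glutathione synthesis, has a catalytic and a modifier subunit, and the difference between their genes was not tested. Gclc, the catalytic subunit, read 13.56, 13.60, 13.61, 13.63 and 13.65 in bleomycin control-gapmer lungs, against 13.06, 13.18 and 12.52 in PBS control-gapmer lungs, and rose by 0.70 (SE 0.12, limma adjusted p = 7.05e-05). PBS replicate 3, at 12.52, stood apart from the other two, and the rise without it was 0.49. Gclm, the modifier subunit, read 8.43, 8.55, 8.39, 8.38 and 8.51 in bleomycin control-gapmer lungs, against 8.30, 8.61 and 8.02 in PBS control-gapmer lungs, a difference of 0.14 that did not pass (SE 0.10, limma adjusted p = 0.305). The groups overlap. The Gclm difference was 0.29 and passed without PBS control-gapmer replicate 2 (limma adjusted p = 0.0191), and was -0.0045 without replicate 3 (limma adjusted p = 0.982). Over its 36 alternatives the adjusted p of Gclm ran from 0.0191 to 0.982. Slc7a11, the cystine importer that feeds glutathione synthesis, read 6.51, 6.59, 6.47, 6.55 and 6.37 in bleomycin control-gapmer lungs, against 5.58, 5.85 and 5.66 in PBS control-gapmer lungs. It rose by 0.80 (SE 0.18, limma adjusted p = 0.00141), but its mean PBS level was below 6.11, the level that 25% of genes had a mean under, where the size of a difference is not resolved.

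The other 5 genes did not pass. Nqo1, the quinone reductase often used as a marker of Nrf2 activity, differed by -0.22 (95% interval -0.66 to 0.22, limma adjusted p = 0.476). Gpx2, an epithelial glutathione peroxidase, differed by 0.29 (95% interval -0.02 to 0.61, limma adjusted p = 0.153), and passed when only the arrays compared were fitted (limma adjusted p = 0.0475, with 0.0475 to 0.385 over its alternatives). Sod2 and Sod3, the mitochondrial and the extracellular superoxide dismutase, differed by 0.38 and 0.27 with SEs of 0.36 and 0.27.

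The bleomycin response was next taken within each gapmer group. With gapmer 1, 1 of the 10 genes was called, Slc7a11, against 9.5% of all named genes. With gapmer 3, 1 was called, Gclc, against 13.9% of all named genes. Slc7a11 rose by 0.57 with gapmer 1 (limma adjusted p = 0.0485). Its values were 6.11, 7.33, 6.19, 6.57 and 6.24 in bleomycin lungs with gapmer 1, against 5.93, 5.93 and 5.89 in PBS lungs with gapmer 1, so replicate 2 was far above the rest. The difference was 0.36 without replicate 2 (limma adjusted p = 0.0369), and the call held in 11 of 36 alternatives (adjusted p 0.0247 to 0.262). Gclc rose by 0.44 with gapmer 3 (SE 0.12, limma adjusted p = 0.0133). It read 13.68, 13.56, 13.87, 13.49 and 13.55 in bleomycin lungs with gapmer 3, against 13.30, 13.13 and 13.14 in PBS lungs with gapmer 3, without overlap. That call was lost without PBS gapmer 3 replicate 2 (limma adjusted p = 0.0664) or replicate 3 (0.0599) and held in the other 34 of its 36 alternatives, over which the adjusted p ran from 0.0018 to 0.0664.

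Hmox1 averaged 12.14 ± 0.45 (SD, n = 5) in bleomycin lungs and 11.75 ± 0.03 (SD, n = 3) in PBS lungs with gapmer 1, a difference of 0.39 (limma adjusted p = 0.181), which was 0.20 without bleomycin gapmer 1 replicate 4. With gapmer 3 it averaged 11.96 ± 0.04 (SD, n = 5) in bleomycin lungs and 11.54 ± 0.27 (SD, n = 3) in PBS lungs, a difference of 0.41 (limma adjusted p = 0.128). That difference passed with array weights (0.0104), with only the arrays compared (0.0327), without bleomycin gapmer 1 replicate 4 (0.0154) and with both arrays that stand apart left out (0.024), with 0.0104 to 0.407 over its alternatives. The differences of Txnrd1 were 0.20 with gapmer 1 and 0.17 with gapmer 3, and those of Srxn1 0.24 and 0.17, none of which passed.

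Whether the responses differ was tested directly. The bleomycin response was smaller with gapmer 1 than with the control gapmer in 2 of the 10 genes, against 7.71% of all named genes called in either direction, and with gapmer 3 in the same 2 genes, against 3.1% of all named genes. For Hmox1 the gapmer 1 response minus the control response was -0.96 (SE 0.24, limma adjusted p = 0.0226), and the gapmer 3 response minus the control response was -0.93 (SE 0.24, limma adjusted p = 0.0387). For Txnrd1 these were -0.36 (SE 0.10, limma adjusted p = 0.0327) for gapmer 1 and -0.40 (SE 0.10, limma adjusted p = 0.0345) for gapmer 3. Both tests use the same control-gapmer arrays, so they are not independent. Part of each difference lies among the PBS lungs. For Hmox1 the gapmer minus control difference was -0.58 with gapmer 1 and -0.76 with gapmer 3 in bleomycin lungs, and 0.38 and 0.17 in PBS lungs. For Txnrd1 it was -0.21 with gapmer 1 and -0.15 with gapmer 3 in bleomycin lungs, and 0.15 and 0.25 in PBS lungs, so with gapmer 3 the larger share lay among the PBS lungs.

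These 4 calls lie close to the threshold. Of 36 alternatives, including each array left out in turn, the Hmox1 call held in 33 with gapmer 1 (adjusted p 0.0003 to 0.055) and in 23 with gapmer 3 (0.0024 to 0.13). The Txnrd1 call held in 24 with gapmer 1 (0.0067 to 0.0907) and in 26 with gapmer 3 (0.009 to 0.122). The estimates were negative in every alternative. Leaving out PBS control-gapmer replicate 1 or 3 ended all 4 calls. PBS gapmer 1 replicate 1 also ended the Hmox1 call with gapmer 1. The Hmox1 call with gapmer 3 was also lost without bleomycin gapmer 3 replicates 2, 3, 4 or 5, bleomycin control replicates 1, 2 or 4 or PBS gapmer 3 replicates 1 or 2. The Txnrd1 call with gapmer 1 was also lost without bleomycin gapmer 1 replicates 2, 3 or 5, bleomycin control replicates 1, 2 or 4 or any PBS gapmer 1 replicate. The Txnrd1 call with gapmer 3 was also lost without bleomycin gapmer 3 replicates 4 or 5, bleomycin control replicates 1, 2 or 4 or PBS gapmer 3 replicates 1 or 2. On the dimmer Hmox1 feature the difference was -0.89 with gapmer 1 (adjusted p = 0.0205) and -0.60 with gapmer 3 (adjusted p = 0.147). Gclc differed by -0.50 with gapmer 1 and did not pass (limma adjusted p = 0.0645), but passed in 5 of 36 alternatives (0.0215 to 0.212), and was -0.30 without PBS control-gapmer replicate 3 (0.212). Gpx2 differed by -0.51 with gapmer 1 and -0.47 with gapmer 3, neither of which passed (limma adjusted p = 0.148 and 0.249). It passed in 2 of 36 alternatives with gapmer 1 (0.0388 to 0.292) and in 1 with gapmer 3 (0.0437 to 0.577).

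**Figure D2:**
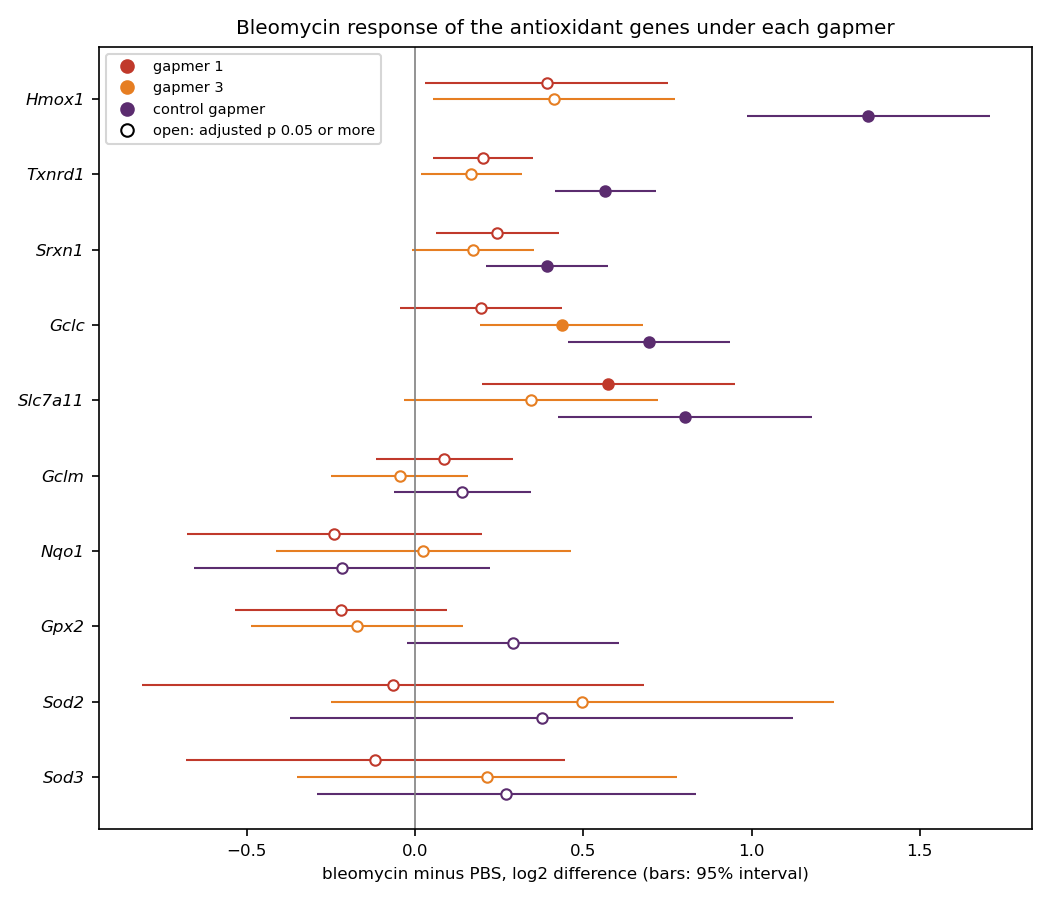
Bleomycin minus PBS difference (horizontal axis, log2) of each gene with its 95% interval under gapmer 1, gapmer 3 and the control gapmer. Filled points had an adjusted p under 0.05: 1 with gapmer 1, 1 with gapmer 3 and 5 with the control gapmer. Hmox1 stood at 0.39, 0.41 and 1.35 in that order.

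Each gapmer was then compared with the control gapmer in bleomycin lungs (n = 5 each). With gapmer 1, Hmox1 and Txnrd1 fell, 2 of the 10 genes, against 10.6% of all named genes called, 5.09% of them lower. With gapmer 3, Hmox1 and Srxn1 fell, 2 of the 10, against 13.2% of all named genes, 7.53% lower. None of the 10 rose with either gapmer. The median difference over the 10 genes was -0.04 with gapmer 1 and -0.07 with gapmer 3, against 0.02 and 0.01 over all genes.

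Hmox1 read 12.14, 11.81, 11.81, 12.90 and 12.06 with gapmer 1 and 12.02, 11.93, 11.95, 11.96 and 11.92 with gapmer 3, against 12.84, 12.89, 12.59, 12.88 and 12.40 with the control gapmer. All 5 gapmer 3 values and 4 of the 5 gapmer 1 values lay below the lowest control value, and gapmer 1 replicate 4 was level with the highest. Hmox1 fell by 0.76 with gapmer 3 (1.70-fold lower, SE 0.15, limma adjusted p = 0.00156), a call that held in all 36 alternatives (highest adjusted p 0.007). The fall of 0.58 with gapmer 1 (1.49-fold lower, SE 0.15, limma adjusted p = 0.0158) held in 32 of 36. It was lost with only the arrays compared (0.1), or without gapmer 1 replicate 2 (0.0571), gapmer 1 replicate 3 (0.0566) or control replicate 2 (0.0548). Without replicate 4 it was 0.76. On the dimmer feature the fall with gapmer 3 passed (-0.44, adjusted p = 0.0372), and the difference with gapmer 1 did not (-0.38, adjusted p = 0.086).

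Txnrd1 was 1.16-fold lower under gapmer 1 (-0.21, SE 0.06, limma adjusted p = 0.031). It read 12.49, 12.35, 12.44, 12.64 and 12.39 with gapmer 1, against 12.70, 12.79, 12.60, 12.71 and 12.57 with the control gapmer, where 4 of 5 gapmer values lay below all controls. The Txnrd1 call held in 27 of 36 alternatives (adjusted p 0.0031 to 0.108), and was lost without control replicates 1, 2 or 4 or gapmer 1 replicates 1, 2, 3 or 5, with only the arrays compared (0.101) and after a correction for place on the array (0.066). With gapmer 3 Txnrd1 differed by -0.15, which did not pass (limma adjusted p = 0.128) except with array weights (-0.20, adjusted p = 0.00548; 0.0055 to 0.299 over its alternatives). Srxn1 read 12.20, 12.20, 12.38, 12.08 and 12.18 with gapmer 3, against 12.47, 12.39, 12.53, 12.48 and 12.35 with the control gapmer, and was 1.18-fold lower (-0.24, SE 0.08, limma adjusted p = 0.0426). Its highest gapmer 3 value, in replicate 3, was the one that overlapped the controls. The Srxn1 call held in 26 of 36 alternatives (0.0018 to 0.114). It was lost without gapmer 3 replicates 1, 2, 4 or 5 or control replicates 1, 2, 3 or 4, and with the replicate number as a block (0.055) or the RNA integrity number as a covariate (0.0565). With gapmer 1 Srxn1 differed by -0.21 (limma adjusted p = 0.0868), and passed with array weights (0.0161), after the correction for place (0.0339) and without gapmer 1 replicate 5 (0.0224), with 0.0161 to 0.222 over its alternatives. Neither gene was called different between gapmer 3 and gapmer 1.

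Gclc and Gclm showed no called difference in these comparisons. Gclc differed by -0.06 with gapmer 1 (95% interval -0.27 to 0.15) and by 0.02 with gapmer 3 (95% interval -0.19 to 0.23). Its mean was 13.55 ± 0.13 with gapmer 1, 13.63 ± 0.15 with gapmer 3 and 13.61 ± 0.03 with the control gapmer (SD, n = 5 each). For Slc7a11 the differences were -0.01 with gapmer 1 and -0.27 with gapmer 3 (95% interval -0.60 to 0.05), and the first was -0.22 without gapmer 1 replicate 2.

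Markers of other cells moved in the same comparisons. Of 8 genes marking monocyte-derived macrophages, a cell type that expresses Hmox1, 8 rose with bleomycin under the control gapmer (33.8% of all named genes called). With gapmer 1 in bleomycin lungs 3 of the 8 fell and none rose, and with gapmer 3, 2 fell and 1 rose (10.6% and 13.2% of all named genes called). Other markers fell there too and none of them rose: 3 of 6 neutrophil markers with each gapmer, and 2 and 4 of 6 smooth muscle markers with gapmers 1 and 3. Epithelial markers, which moved both ways, are given below. The log2 of the summed level of the 8 macrophage markers ran from 16.31 to 16.51 with gapmer 1, 16.36 to 16.57 with gapmer 3 and 16.58 to 16.70 with the control gapmer in bleomycin lungs. In PBS lungs it ran from 15.63 to 15.81 with gapmer 1, 15.45 to 15.63 with gapmer 3 and 15.60 to 15.76 with the control gapmer. With gapmer 1 against the control gapmer in PBS lungs 2 of the 8 rose, Trem2 by 1.19 and Gpnmb by 0.97, with a median of 0.63 over the 8. The bleomycin response was smaller with gapmer 1 in 5 of the 8 and with gapmer 3 in 1. Their lowest member, Mmp12, was under the 25th percentile of gene means in the PBS control-gapmer group alone. Arg1, an arginase of alternatively activated macrophages, read 9.13, 8.32, 8.28, 9.59 and 8.14 with gapmer 1 in bleomycin lungs, against 10.48, 10.83, 10.17, 10.55 and 10.05 with the control gapmer. Replicate 4 was the highest gapmer 1 sample for Arg1 and for Hmox1, but its Arg1 lay below every control value. Its Spp1, another of the 8 markers, was also the highest with gapmer 1, at 13.65, and lay within the control values of 13.61 to 14.07. The other markers are not given by sample here. Its Hmox1, at 12.90, was level with the highest control value, 12.89. On the dimmer Hmox1 feature it read 8.90, within the control values of 8.72 to 9.11. The part of these cells in the Hmox1 result was not tested.

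In PBS lungs (n = 3 each) none of the 10 genes was called with gapmer 1 or gapmer 3, against 1.11% and 0.0338% of all named genes. At an unadjusted p under 0.05, 3526 and 2025 named genes differed. With gapmer 1, Hmox1 read 11.78, 11.72 and 11.75, against 11.37, 11.43 and 11.31 with the control gapmer, a difference of 0.38 (limma adjusted p = 0.326). Gclc read 13.20, 13.37 and 13.50 with gapmer 1, against 13.06, 13.18 and 12.52 with the control gapmer, a difference of 0.44 (limma adjusted p = 0.0842) that passed without control replicate 2 (0.57, adjusted p = 0.0298) and was 0.24 without control replicate 3 (adjusted p = 0.413), the ends of its range over the alternatives. Gpx2 read 12.88, 13.02 and 12.72 with gapmer 1, against 12.29, 12.64 and 12.28 with the control gapmer, a difference of 0.47 (limma adjusted p = 0.151). Every gapmer 1 value of these 3 genes, and of Txnrd1 and Slc7a11, was above every control value, though no difference passed. The share of all named genes so separated at n = 3 each was not counted. Slc7a11 averaged 5.91 with gapmer 1 and 5.70 with the control gapmer, below 6.11, where the size of a difference is not resolved. With gapmer 3, Txnrd1 read 12.48, 12.35 and 12.24, against 12.09, 12.20 and 12.03 with the control gapmer, again without overlap, a difference of 0.25 (limma adjusted p = 0.347). Gapmer 3 and gapmer 1 were also compared with each other in bleomycin lungs, where none of the 10 genes and 0.0% of all named genes were called by limma, and 838 named genes had an unadjusted p under 0.05. The Hmox1 difference between them was -0.19 (95% interval -0.50 to 0.13), and 0.0014 without gapmer 1 replicate 4.

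Nqo1 and Gpx2 varied more by sample than by group. Nqo1 read 8.21, 8.30, 9.44, 8.10 and 8.21 in bleomycin lungs with gapmer 3, against 8.23, 8.14, 8.25, 8.19 and 8.40 with the control gapmer. Gpx2 read 12.31, 12.51, 13.11, 12.31 and 12.39 with gapmer 3, against 12.74, 12.64, 12.58, 12.77 and 12.75 with the control gapmer. Replicate 3 of the gapmer 3 group was the high value in both. Without it Nqo1 differed from the control gapmer by -0.04 in place of 0.21, and Gpx2 by -0.32 in place of -0.17 (limma adjusted p = 0.0608 against 0.468).

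Replicate 3 was above the other 4 gapmer 3 samples in 7 of the 10 genes, in 40 of 79 other pathway genes (50.6%) and in 4231 of 20738 named genes (20.4%), a comparison made after its values were seen. The gaps to the median of the other 4 were widest for Gsta2 (1.42), Nqo1 (1.23), Gstm1 (0.83), Gpx2 (0.76) and Cbr3 (0.76). Gsta2 and Gstm1 are glutathione transferases and Cbr3 is a carbonyl reductase, all known as Nrf2 targets. Hmox1 in this sample, at 11.95, was within the range of its group. Nos2, the inducible nitric oxide synthase, was 0.72 below the median of the others. Sample quality and cell content of this lung as a source of the difference were not tested.

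**Figure D3:**
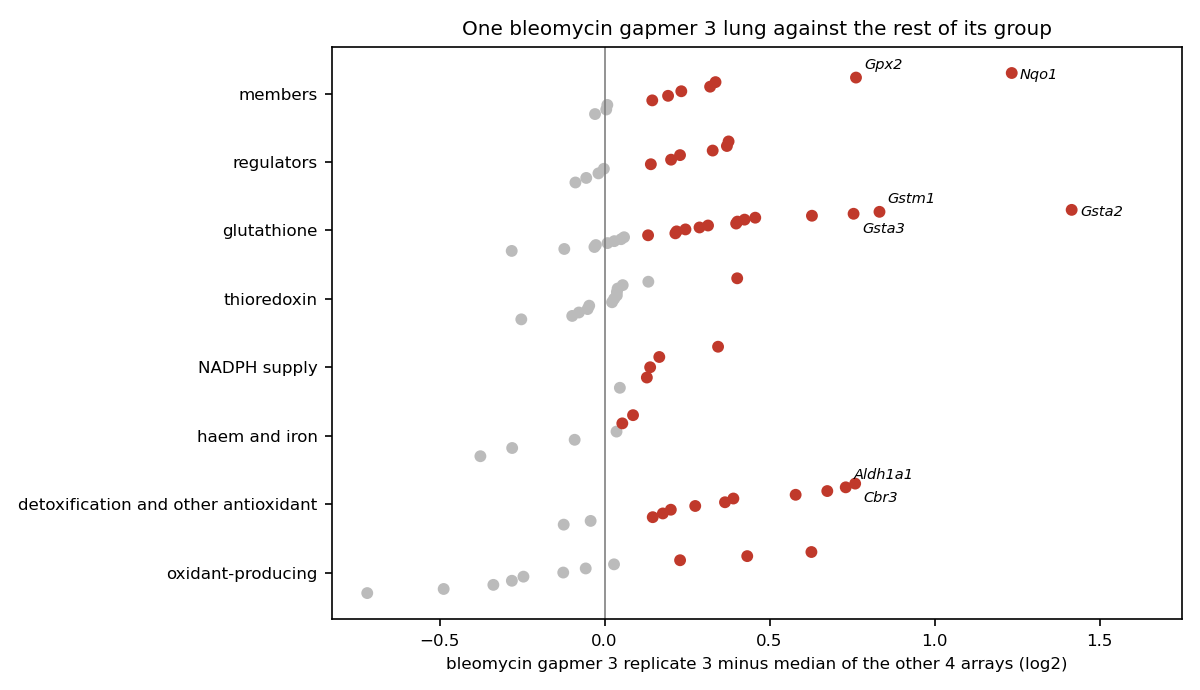
Bleomycin gapmer 3 replicate 3 minus the median of the other 4 arrays of its group (horizontal axis, log2), 1 point per gene, for the 10 genes (members) and 7 lists of pathway genes. Red points were above all 4 others, which held for 7 of the 10 genes and 40 of the 79 pathway genes.

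Sod2 and Sod3 followed their neighbours on the array. The layout was inferred from correlations between features by their number, and everything said here of place rests on it. In bleomycin lungs with the control gapmer Sod2 read 14.60, 14.53, 14.42, 14.46 and 13.11, and Sod3 14.42, 14.29, 14.22, 14.44 and 13.43, with replicate 5 low in both. The median deviation of neighbouring features from their own means ranged over 1.54 between arrays around Sod2 and over 1.22 around Sod3. These ranges are larger than for 98.9% and 98.1% of named genes, and the ranges of the other 8 genes ran from 0.11 to 0.28, with a median of 0.22 over all genes. Subtracting the local deviation, a step added after seeing the data, brought Sod2 to 14.20 ± 0.02 in bleomycin and 14.28 ± 0.08 in PBS control-gapmer lungs (SD, n = 5 and 3). The difference became -0.08 with an SE of 0.07 (limma adjusted p = 0.357), in place of 0.38 with an SE of 0.36. Sod3 became -0.09 with an SE of 0.08 (limma adjusted p = 0.41). No comparison of either gene passed before or after this step. Their deviations from group means correlated at r = 0.93 over the 24 arrays before the step and at -0.39 after it.

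**Figure D4:**
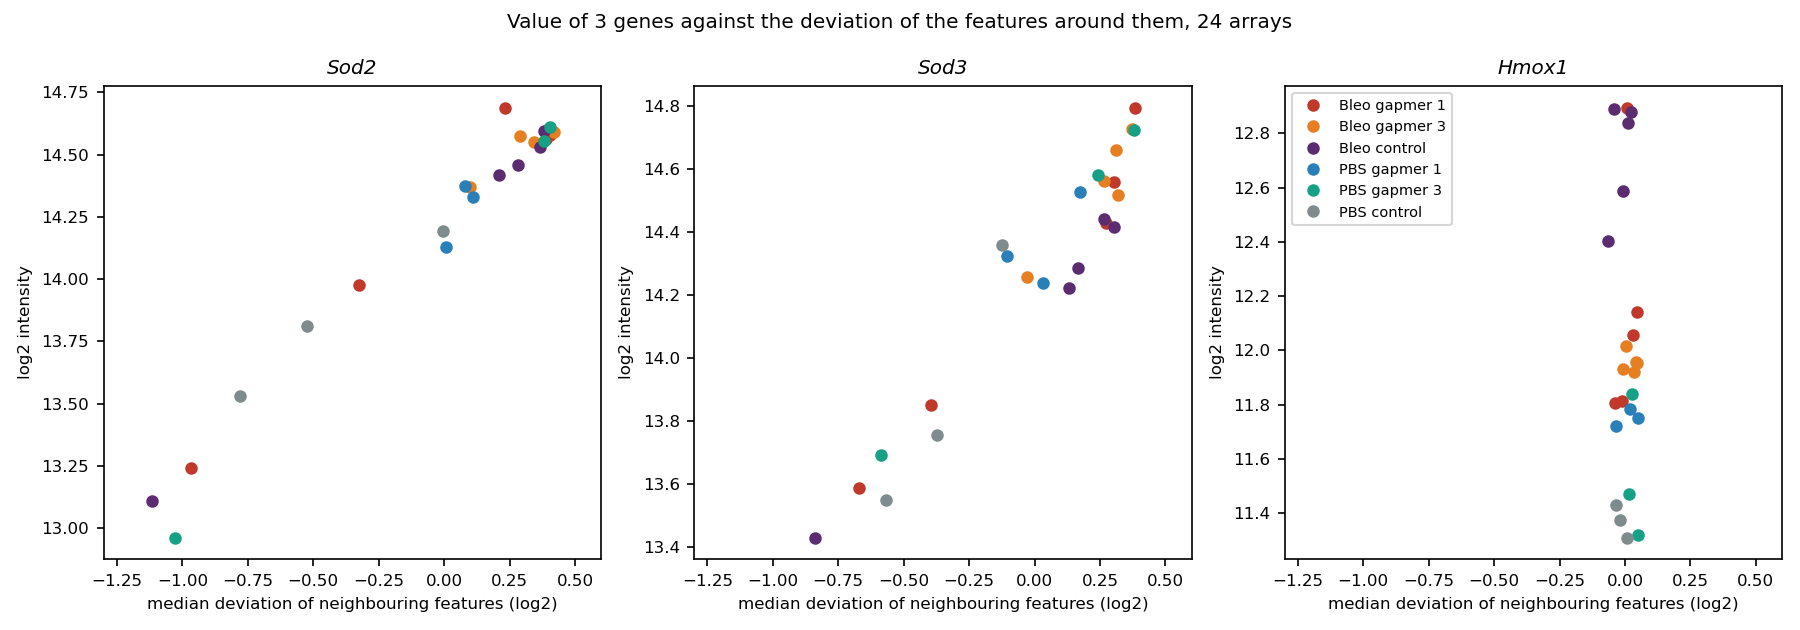
Log2 intensity (vertical axis) of Sod2, Sod3 and Hmox1 against the median deviation of the features around each on the same array (horizontal axis, log2), for 24 arrays coloured by group. Sod2 and Sod3 rise with the deviation of their neighbours, which spans 1.54 and 1.22, while that around Hmox1 spans 0.11.

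The rest of the pathway was described with 7 lists, 79 measured genes in all. Under the control gapmer 19 rose and 17 fell with bleomycin, with a median of -0.03. That is 45.6% called, against 33.8% of all named genes, and no list's share was tested against it. Of 10 regulators, none rose and Bach1 fell by 0.45 (limma adjusted p = 0.00145). Nfe2l2 itself differed by -0.06 under the control gapmer (limma adjusted p = 0.679), but rose by 0.41 with gapmer 1 (limma adjusted p = 0.0072) and by 0.35 with gapmer 3 (limma adjusted p = 0.0127). The difference in its response passed with gapmer 1 (0.47, limma adjusted p = 0.0338) and not with gapmer 3 (0.41, limma adjusted p = 0.0879). The first held in 28 of 36 alternatives (0.00867 to 0.0957), and was lost with only the arrays compared or without bleomycin control replicates 1, 2 or 4, PBS control replicates 1 or 3 or PBS gapmer 1 replicates 1 or 2. Bleomycin gapmer 1 replicate 5 was high for Nfe2l2, at 13.72, against 13.18 to 13.33 in the others of its group, and without it the difference in response was 0.38. Nfe2l2 averaged 13.35 ± 0.21, 13.27 ± 0.05 and 13.11 ± 0.10 in bleomycin lungs with gapmer 1, gapmer 3 and the control gapmer (SD, n = 5 each), and 12.94 ± 0.09, 12.91 ± 0.02 and 13.17 ± 0.15 in PBS lungs in the same order (SD, n = 3 each). Keap1, whose neighbours ranged over 0.57 between arrays, differed by 0.59 (SE 0.26, limma adjusted p = 0.0891).

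Glutathione genes moved both ways under the control gapmer, 3 rising and 6 falling of 22 (40.9% called, against 33.8% of all named genes). Gstm1 fell by 1.24, Gsta3 by 1.11 and Gsta2 by 0.87, while Gsto1, an omega-class transferase, rose by 0.65 and Gsr, glutathione reductase, by 0.29. Transferases of 1 class are close in sequence, so the probe of one may also read another, and these values are uncertain to that extent. In the thioredoxin list 4 rose and 3 fell of 13 (53.8%). Glrx, glutaredoxin, rose by 0.92 and Prdx4 by 0.36, and the reductase Txnrd3 fell by 0.80 and the peroxiredoxin Prdx6, abundant in lung epithelium, by 0.61. Of 5 genes of NADPH supply, Pgd rose by 0.38 and none fell (20.0%, below the share over all genes).

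Of 6 haem and iron genes, 4 rose and none fell (66.7%, against 33.8% of all named genes): the iron exporter Slc40a1 by 0.62, Hmox2 by 0.39 and the biliverdin reductases Blvrb and Blvra by 0.32 and 0.29. In the list of detoxification and other antioxidant genes 2 rose and 5 fell of 12 (58.3%), with Aldh3a1 at 1.21 and Akr1b8 at 1.03, and Aldh1a1 at -0.92, Sod1, the cytosolic superoxide dismutase, at -0.81 and catalase, Cat, at -0.56. Of 11 oxidant-producing genes 5 rose and 2 fell (63.6%). Subunits of the phagocyte NADPH oxidase were among those that rose, Cybb by 1.05, Ncf1 by 0.98 and Ncf4 by 0.93, as was Nos2 by 0.87, and Mpo and Nox4 fell by 1.08 and 0.79.

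With gapmer 1 in bleomycin lungs, 5 of the 79 rose and 3 fell (10.1%, against 10.6% of all named genes), and with gapmer 3, 7 rose and 5 fell (15.2%, against 13.2%). These shares are near those over all genes, so the genes named next are single values and no result about the pathway. Gsr fell by 0.24 with gapmer 1 and by 0.28 with gapmer 3, Slc40a1 by 0.36 and 0.42, and Ncf4 by 0.62 and 0.70. Gsta3 rose by 0.51 with gapmer 1 and by 0.60 with gapmer 3, Gstt1 by 0.50 and 0.41, Ephx1, a microsomal epoxide hydrolase, by 0.35 and 0.44, and Aldh1a1 by 0.49 and 0.54. Gsto1 and Akr1b8 fell with gapmer 3, by 0.35 and 0.33. No regulator was called with either gapmer. Both gapmer groups share the control-gapmer arrays. In PBS lungs 2 of the 79 were called with gapmer 1 (2.53%, against 1.11% of all named genes) and none with gapmer 3. Aldh3a1 rose by 1.91 (limma adjusted p = 0.0413), a call that held in 23 of 36 alternatives (0.00789 to 0.186). Glrx rose by 0.77 (limma adjusted p = 0.0491), a call that held in 18 of 36 (0.00821 to 0.221). Each was lost without any 1 of the 3 PBS gapmer 1 arrays or without PBS control replicate 1 or 3, among others.

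Epithelial markers moved with several of these genes. Of 7 basal and squamous epithelium markers 4 rose and none fell with bleomycin under the control gapmer. Their summed level (log2) ran from 14.09 to 14.85 in bleomycin and from 11.91 to 13.12 in PBS control-gapmer lungs. Ivl was under the 25th percentile of gene means in every group, and Krt6a and Sprr2f in every group but bleomycin with the control gapmer. In PBS lungs with gapmer 1, where Aldh3a1 was higher, the summed level ran from 14.42 to 15.20, but none of the 7 was called. In PBS lungs with gapmer 3, where Aldh3a1 was not called, it ran from 12.62 to 15.25. Of 7 alveolar type 1 markers 6 fell and 1 rose, and of 7 endothelial markers 6 fell and none rose, with bleomycin under the control gapmer, the comparison in which several transferases, Aldh1a1 and Sod1 fell. In that comparison 3 of 7 alveolar type 2 markers and 3 of 7 airway club and ciliated markers fell and none rose, 42.9% of each list. Over all named genes 33.8% were called there in either direction, and 19.3% lower. With each gapmer against the control gapmer in bleomycin lungs, where Gsta3, Gstt1, Ephx1 and Aldh1a1 rose, 5 of 7 alveolar type 2 markers, 5 of 7 alveolar type 1 markers and 3 of 7 airway markers rose and none fell. In the same comparisons 2 of 7 basal and squamous markers fell with gapmer 1 and 3 with gapmer 3, and none rose. Over all named genes 10.6% were called with gapmer 1 and 13.2% with gapmer 3. The part of these cells in the results was not tested.

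**Figure D5:**
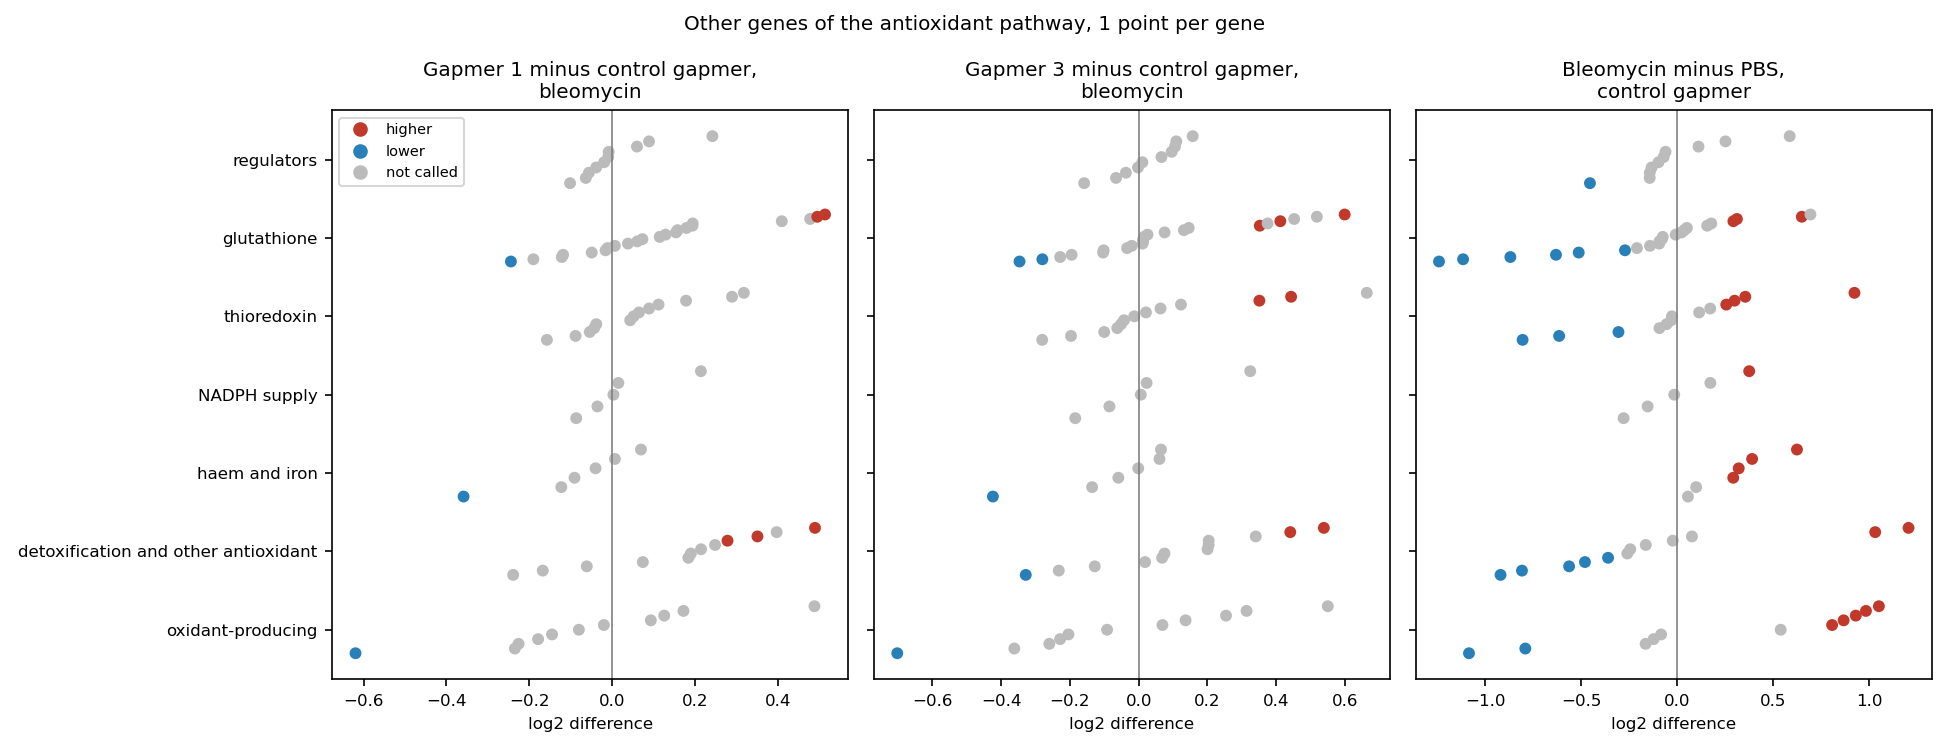
Log2 difference (horizontal axis) of 79 pathway genes by list, 1 point per gene, for gapmer 1 and gapmer 3 against the control gapmer in bleomycin lungs and for bleomycin against PBS under the control gapmer. Red and blue points were called higher and lower, 5 and 3 with gapmer 1, 7 and 5 with gapmer 3, and 19 and 17 with bleomycin.

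Among themselves the 10 genes did not vary as one block. Correlations of deviations from group means over the 24 arrays were highest, after the pair of dismutases, for Nqo1 with Gpx2 (r = 0.84), Gclc with Gclm (0.81) and Hmox1 with Txnrd1 (0.79), and Hmox1 with Nqo1 stood at -0.10. Genes most like each were sought over the values of the 24 arrays, only among named genes whose mean lay above the median of gene means. Among these, the genes most like Hmox1 were Tmem45a (r = 0.97), Adamts4 (0.96) and Tubb6 (0.95), and those most like Nqo1 were Ugt1a6b (0.83), Cbr3 (0.82) and Gsta2 (0.80). Aldh3a1 was most like Gpx2 (0.77), Ucp3 most like Gclc (0.94), Lair1 most like Txnrd1 (0.91), Noct most like Srxn1 (0.90), Socs2 most like Gclm (0.76) and AU040972 most like Slc7a11 (0.84). For Sod2 it was Akr1b10 (0.99), whose feature lies near it on the array, and r was 0.38 after the step for place. For Sod3 it was Prkx (0.97), with r = 0.31 after that step. All these correlations share the same arrays and groups and are descriptions.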

How the data were processed

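The deposited values are log2 intensities from one-colour arrays with Cy3 label, quantile-normalised between arrays, as the values show: array medians lay between 6.485 and 6.495. The submitters' processing notes name limma, without a version. The sources used here do not describe background correction, so detection calls could not be made. Of 62976 features 31465 carried 1 gene symbol. Symbols were updated with RefSeq tables (GRCm38.p6) for 3282 features. Each gene was read by its feature with the highest mean.

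A single limma model (version 3.58.1, R 4.3.3; lmFit, eBayes) of 6 group means was fitted over 24 arrays and 20738 named genes, leaving 18 residual degrees of freedom, with two-sided p-values adjusted by Benjamini-Hochberg within each of 10 contrasts and called under 0.05. The fit was tested on simulated data. The number of arrays limits the precision. Up to 4 called genes per list and contrast, those with the largest differences, are named. So are up to 3 of the most correlated genes per member, among genes with a mean above the median of gene means. Gsr, Cat, Nos2 and Nox4 under the control gapmer, and Keap1, were named outside this rule after their values were seen. Members and lists were chosen with earlier results of these data known. Figures were drawn with matplotlib 3.10.9 and tables made with pandas 2.3.3, SciPy 1.17.1 and NumPy 2.4.6 under Python 3.11.15. Alternatives covered normalisation, dim genes, features, variance and array weights, arrays fitted, RNA integrity, a replicate block, each array left out and, added after seeing the data, place on the array and 2 arrays left out together.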

Additional observations from a re-analysis of the deposited data

Results flagged for a closer look

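The 10 genes in the groups of 5 samples gave 30 sets, each tested for a sample far from the others. Of these, 5 stood out, where normally spread values would give about 1 in 20. The matching share over all named genes, with all arrays and sides together, was not totalled. The shares below are for single arrays and sides, so the 5 cannot be set against them. In the bleomycin gapmer 3 group replicate 3 was high for Nqo1 (9.44) and Gpx2 (13.11), and replicate 2 was low for Sod2 (14.37). Over all named genes these arrays stood out on the same side in 1.29% and 0.66%. For bleomycin control-gapmer replicate 5, low, the share was 3.20%. In the bleomycin control-gapmer group replicate 5 was low for Sod2 (13.11) and Sod3 (13.43), on the array where the features around both read lowest (a local deviation of -1.11 around Sod2 and -0.84 around Sod3).

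The bleomycin response differed between gapmer and control-gapmer lungs, by a test of the difference, for Hmox1 (-0.96 with gapmer 1 and -0.93 with gapmer 3) and Txnrd1 (-0.36 with gapmer 1 and -0.40 with gapmer 3).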

How the results depend on the processing

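The count of the 10 genes called for bleomycin under the control gapmer was 5, and 6 with only the arrays compared. Both arrays left out are bleomycin gapmer 1 replicate 4 and bleomycin gapmer 3 replicate 3, a choice made, like the step for place, after seeing the data. The single call for bleomycin with gapmer 1 became 0 after quantile normalisation again, median centring, only the arrays compared, the RNA integrity covariate, the replicate block, the step for place and both arrays left out. For bleomycin with gapmer 3 the count was 3 with array weights, 2 with only the arrays compared and 2 with both arrays left out. For gapmer 1 against control in bleomycin lungs it was 0 with only the arrays compared, and for gapmer 3 it was 1 with the RNA integrity covariate and 1 with the replicate block. The difference in response had 4 calls with gapmer 1 with both arrays left out, and with gapmer 3 it had 1 with the mean of all features and 0 with the RNA integrity covariate. The cause was not tested. With single arrays left out, counts ran from 5 to 6 (bleomycin, control gapmer), 0 to 2 (gapmer 1), 0 to 2 (gapmer 3), 0 to 2 and 1 to 2 (gapmers 1 and 3 against control in bleomycin lungs), 0 to 1 and 0 to 0 (in PBS lungs), 0 to 0 (gapmer 3 against 1), and 0 to 3 and 0 to 2 (differences in response). No called direction reversed. Replicate numbers are shared between groups only as numbers: 23 of 51 same-numbered pairs correlated over 0.1 (median 0.07), and 10 of 24 arrays correlated best with their own number. Slc7a11 in PBS lungs is limited by its dim signal.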
